A study of Mus musculus with 16 samples.

Results

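The 10 genes described here code for the transcription factors that make and keep a fat cell: Pparg, Cebpa, Cebpb, Cebpd, Klf15, Zfp423, Ebf1, Ebf2, Ppara and Rxra. They were found by matching the RefSeq identifiers of the expression table to these gene symbols, which gave 76 of the 130343 entries in the table, each entry being 1 RefSeq transcript. RNA was measured in 16 libraries from 8 wild-type male C57BL/6J mice, and each mouse gave 1 library of subcutaneous adipose tissue (SAT, inguinal pads, both sides pooled) and 1 of visceral adipose tissue (VAT, the mesenteric fat along the gut, with visible vessels removed). The lean mice were kept on normal laboratory chow, and the obese mice ate a Western diet in which fat gave 42% of the energy and which held 0.2% cholesterol. Both diets ran for 12 to 14 months from an age of 10 weeks. Each of the 4 groups (SAT and VAT, lean and obese) holds 4 libraries. All mice were male and of 1 inbred strain, and whole tissue was sequenced, so adipocytes, precursors, immune cells and vessels are mixed in every library. Total counts lay between 4604460 and 11897722 in SAT of lean mice, 10828758 and 16614407 in SAT of obese mice, 1256082 and 15802634 in VAT of lean mice, and 2247737 and 11615347 in VAT of obese mice. The shallowest libraries were VAT of lean mouse 1 and VAT of obese mouse 1.

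Fat cells arise from fibroblast-like precursors through a relay of transcription factors. Zfp423 and Ebf2 mark committed precursors, with Ebf2 best known from brown and beige fat, and Ebf1 acts both in precursors and in mature adipocytes, besides its role in B cells. Cebpb and Cebpd are switched on early in differentiation and act ahead of Pparg and Cebpa, which drive the mature programme and maintain each other's expression. Pparg, the nuclear receptor bound by the thiazolidinedione drugs, works on DNA as a dimer with Rxra, as does Ppara, the related receptor that drives fatty acid oxidation. Klf15 is a zinc-finger factor that promotes adipogenesis and responds to glucocorticoids and fasting.

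The promoter sequences of 8 of these genes, 13 windows in all, were taken from RefSeq (build GRCm38.p6, the 250 bases before each start site). Cebpd and Ebf2 were not among them. The windows of Klf15 and Pparg are shown because they belong to genes whose counts differ between groups and because each holds the CCAAT letters or the C/EBP-type letters TTGCNNAA, the motif that factors such as Cebpd bind. Another Pparg window, with CCAAT, and a Zfp423 window, with TTGCNNAA, also meet this and are not shown. Matches on either strand to CCAAT or TTGCNNAA are in capitals. The first is the window of Klf15, on the plus strand at chr6:90462326-90462575. The second is the downstream one of 3 Pparg windows, on the plus strand at chr6:115421816-115422065.
Klf15: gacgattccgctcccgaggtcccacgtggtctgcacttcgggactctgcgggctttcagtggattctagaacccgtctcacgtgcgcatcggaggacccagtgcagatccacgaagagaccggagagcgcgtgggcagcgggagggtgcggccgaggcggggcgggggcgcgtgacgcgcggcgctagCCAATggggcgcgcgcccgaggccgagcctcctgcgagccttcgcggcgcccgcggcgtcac
Pparg: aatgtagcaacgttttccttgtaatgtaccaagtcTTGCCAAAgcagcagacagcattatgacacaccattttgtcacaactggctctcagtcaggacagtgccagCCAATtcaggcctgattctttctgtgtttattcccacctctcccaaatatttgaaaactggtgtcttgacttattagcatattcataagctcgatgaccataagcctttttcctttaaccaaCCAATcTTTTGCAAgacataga
The Klf15 window has 72.0% G and C and holds 1 CCAAT match, and the Pparg window has 40.8% G and C and holds 2 CCAAT and 2 TTGCNNAA matches. The matches do not overlap each other. Of the 13 windows, 3 hold CCAAT and 2 hold TTGCNNAA, against 33.8% and 9.56% of 32851 RefSeq promoter windows of the same length. These are matches of letters and were not tested as binding sites.

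The factors differ in how many transcripts the annotation gives them, and the reads were counted on transcripts. Of all counts on protein-coding genes, 88.7% fell on the 8152 genes with a single entry, while the 13531 genes with 2 or more entries shared 11.3%, although the median total was lower for single-entry genes (25 against 38 counts). Actb, with 1 entry, collected 598050 counts in the 16 libraries, and Gapdh, with 2 entries, collected 69. Low counts of a gene with several entries are therefore not read here as low expression, and levels are not compared between genes. Cebpd is the one factor with a single entry (NM_007679, from the gene at chr16:15705150-15708895, plus strand, 1 exon, GRCm39), and it collected 3093 counts. Cebpa, with 5 entries, and Cebpb, with 3, were listed at 0 in all 16 libraries, although Cebpa is a defining factor of adipocytes and the adipocyte genes Fabp4, Lep and Plin1 were counted in every group. No statement on Cebpa or Cebpb can be made from these counts. Ppara, with 14 entries, collected 34 counts. The other 6 factors collected between 323 (Ebf2) and 625 (Zfp423) counts, on 3 to 14 entries each.

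**Figure D1:**
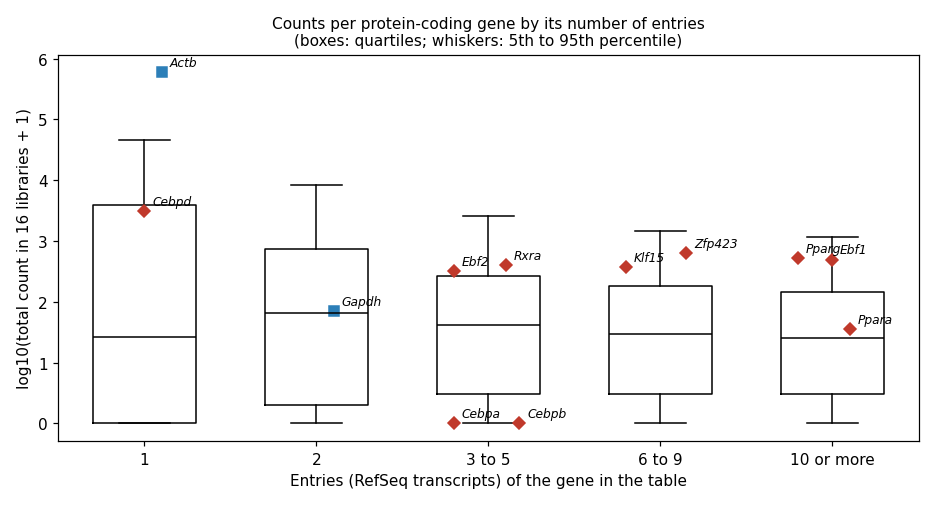
Total counts over 16 libraries of protein-coding genes, as log10(total + 1), against the number of entries of the gene in the table; boxes show quartiles, whiskers the 5th and 95th percentiles, red diamonds the 10 factors and blue squares Actb and Gapdh. Cebpd, the single-entry factor, stands at 3093 counts, while Cebpa and Cebpb lie at 0.

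Of the 76 entries, 34 had at least 1 count and 9 passed the filter (a CPM, the count scaled to the library's total, over 1 in 3 or more libraries), and these 9 come from 7 genes. The tested entry carried all counts of Cebpd and of Ebf2 (NM_001360202), 94.8% of those of Rxra (NM_011305), 79.3% of those of Klf15 (NM_001355668) and 70.3% of those of Pparg (XR_001785108, which RefSeq gives as a non-coding transcript model). Ebf1 and Zfp423 had 2 tested entries each. Each entry was tested with edgeR's quasi-likelihood test over all 13288 entries that passed, with Benjamini-Hochberg adjustment, and called at an adjusted p below 0.05. The same test was run on counts summed per gene over 12186 genes, which uses all reads a factor kept, and the levels below are those sums, as CPM scaled by TMM.

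Among the 7 tested factors, Cebpd rose with obesity in both tissues, Klf15 fell in SAT, and Ebf2 fell in VAT, and no other factor had a called entry in a comparison of diets. In SAT 2 of 7 genes had a called entry, where 11% of all entries tested were called, and in VAT 2 of 7, where 10.9% were called. With counts summed per gene Ebf1 was called lower in VAT as well, which made 2 genes in SAT and 3 in VAT, against 11.6% and 12.2% of all gene sums. Pparg and Rxra were called in neither tissue by diet, apart from a Pparg entry below the filter that is described with that gene. Under the stricter rule of the study, which also asks for a log2 fold change beyond 1.5, Klf15 in SAT and Cebpd in VAT were left, where 2.75% and 3.17% of all entries passed. In whole tissue, fewer cells of a type and less RNA of a gene per cell cannot be told apart.

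**Figure D2:**
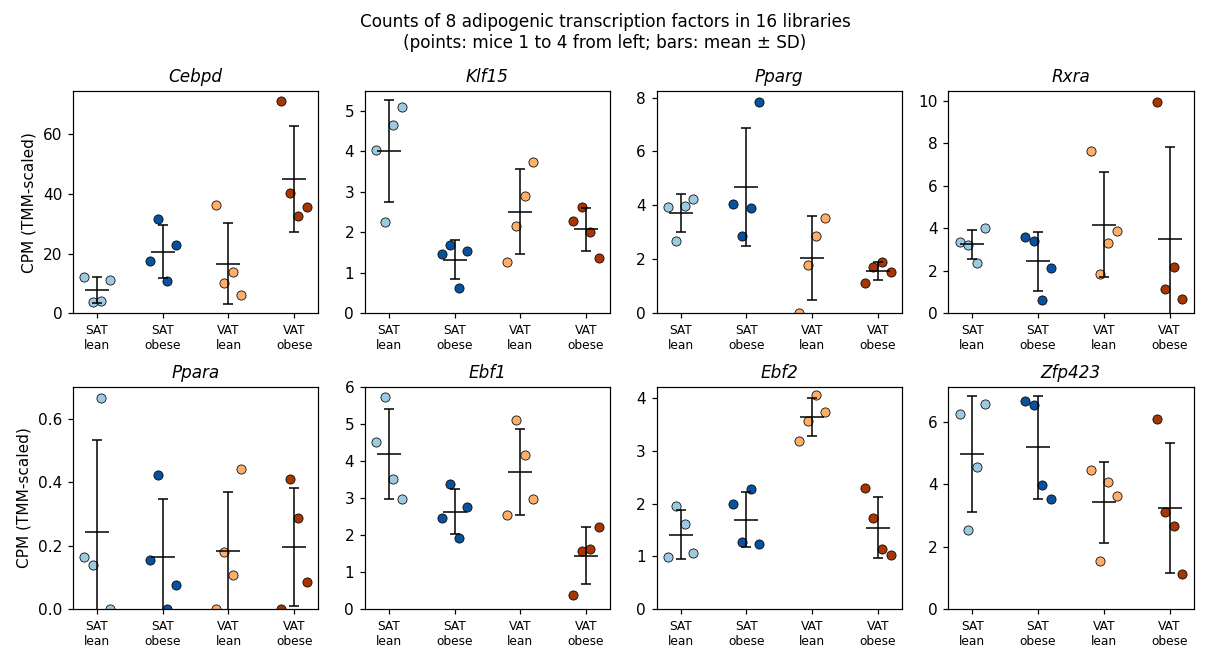
TMM-scaled CPM of 8 factors (counts summed per gene) in the 4 groups; points are mice 1 to 4 from left to right, lines the mean and SD of 4 libraries, with the lower end of a bar left off where it passes 0. Cebpd is higher in obese groups, Klf15 is lowest in SAT of obese mice, and Ebf2 is highest in VAT of lean mice.

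Cebpd, the early C/EBP factor, stood at 12.2, 3.93, 3.99 and 11.02 CPM in SAT of lean mice 1 to 4. In SAT of the obese mice it stood at 17.6, 31.4, 10.7 and 22.9 CPM. Obese mouse 3 lay just below lean mice 1 and 4, so the groups overlapped by that library, and the other 3 obese libraries lay above all lean ones. The difference was 2.65-fold (log2 fold change 1.41, SE 0.43, adjusted p = 0.036). In VAT the lean mice had 36.3, 10.1, 13.7 and 6.16 CPM and the obese mice 70.9, 40.3, 32.5 and 35.5 CPM. Here lean mouse 1, the shallowest library with 57 counts, lay above obese mice 3 and 4, and the other 3 lean libraries lay below every obese one. The difference was 3.15-fold (log2 1.65, SE 0.43, adjusted p = 0.014). The responses of the 2 tissues were close, differing by 0.11 (SE 0.43, adjusted p = 0.944) on the log2 scale. With 1 mouse left out at a time, the log2 fold change lay between 1.14 and 1.78 in SAT and between 1.30 and 2.11 in VAT. The call in SAT was lost without lean mouse 2 or 3 or without obese mouse 1, 2 or 4, and the call in VAT without lean mouse 2 or 4 or without obese mouse 1 (adjusted p up to 0.134 in SAT and 0.087 in VAT). DESeq2 called Cebpd in neither tissue (adjusted p = 0.081 in SAT and 0.074 in VAT), and limma voom called it in both.

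Cebpd also differed between the tissues of the same mouse. In obese mice VAT lay above SAT in 4 of 4 mice with no overlap of the groups (as upward for 15.7% of gene sums), by 2.19-fold (log2 1.13, SE 0.28, adjusted p = 0.004, mouse as a block). This call was lost without obese mouse 1 (log2 0.82, adjusted p = 0.057) and with DESeq2 (adjusted p = 0.061). In lean mice VAT lay above SAT in mice 1, 2 and 3 and below it in mouse 4, with a difference of 2.03-fold (log2 1.02, SE 0.33, adjusted p = 0.037). That call was lost without lean mouse 1 (log2 0.80), 2 (0.91) or 3 (0.75), with DESeq2 (1.02, adjusted p = 0.162), with limma voom (0.71, adjusted p = 0.264) and without the mouse block (0.85, adjusted p = 0.250). Without the block and without the shallow VAT library of lean mouse 1 the log2 difference was 0.37 (adjusted p = 0.638).

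Klf15, the glucocorticoid-responsive zinc-finger factor, went the other way and did so in SAT. SAT of lean mice had 4.03, 2.24, 4.66 and 5.09 CPM, and SAT of obese mice 1.46, 1.69, 0.619 and 1.54 CPM. Every obese library lay below every lean one, and such a complete separation downward was found in 7.63% of all gene sums. The summed counts fell 3.05-fold (log2 -1.61, SE 0.35, adjusted p = 0.004), and the main entry gave the same log2 value of -1.61 (SE 0.40, adjusted p = 0.011). The sum kept its call without any 1 mouse, between -1.82 and -1.36, with an adjusted p of at most 0.022. The entry alone lost it without obese mouse 3 (adjusted p = 0.052). In VAT the lean mice had 1.27, 2.14, 2.88 and 3.74 CPM and the obese mice 2.29, 2.63, 2.01 and 1.36 CPM, and these ranges overlapped widely. The log2 difference in VAT was -0.44 (SE 0.36, adjusted p = 0.498). The test of the difference between the tissues' responses gave 1.19 (SE 0.49, unadjusted p = 0.026, adjusted p = 0.235), so a response limited to SAT was not shown. Between tissues Klf15 was lower in VAT in 4 of 4 lean mice and higher in VAT in 3 of 4 obese mice, with log2 differences of -0.55 (adjusted p = 0.310) and 0.64 (adjusted p = 0.194).

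Ebf2, a factor of committed precursors, was highest in VAT of lean mice and fell there with obesity. VAT of lean mice had 3.19, 3.57, 4.06 and 3.74 CPM, and VAT of obese mice 2.29, 1.73, 1.15 and 1.02 CPM. The groups did not overlap, as was so downward for 5.1% of all gene sums in VAT. The lean value of mouse 1 rested on 5 counts and the obese value of mouse 1 on 6. Its single measured entry fell 2.60-fold (log2 -1.38, SE 0.33, adjusted p = 0.008), and this call held without any 1 mouse (log2 -1.53 to -1.21, adjusted p at most 0.047). In SAT the lean mice had 0.988, 1.96, 1.62 and 1.06 CPM and the obese mice 1.99, 1.27, 2.27 and 1.23 CPM, with a log2 difference of 0.28 (SE 0.33, adjusted p = 0.661). The difference between the 2 responses was -1.53 on the log2 scale (SE 0.52, unadjusted p = 0.007, adjusted p = 0.134). Limma voom put the same difference at an adjusted p of 0.033 and DESeq2 did not call it. In lean mice Ebf2 was higher in VAT than in SAT in 4 of 4 mice, without overlap (as upward for 9.03% of gene sums), by 2.53-fold (log2 1.34, SE 0.37, adjusted p = 0.014), and this call was lost without lean mouse 3 (adjusted p = 0.070) or 4 (adjusted p = 0.063). In obese mice the tissues differed by -0.19 (SE 0.36, adjusted p = 0.745), with VAT higher in 2 of 4 mice.

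Ebf1, which shares a DNA-binding domain with Ebf2, was called lower in VAT with its entries summed, while by edgeR neither entry passed alone. VAT of lean mice had 2.55, 5.12, 4.17 and 2.97 CPM, and VAT of obese mice 0.381, 1.56, 1.62 and 2.22 CPM. The obese libraries all lay below the lean ones, as was so downward for 5.1% of all gene sums in VAT. The lowest of them, that of obese mouse 1, held 1 count. The summed counts fell 2.47-fold (log2 -1.31, SE 0.33, adjusted p = 0.010), and the call was lost without lean mouse 2 (adjusted p = 0.067). The 2 tested entries gave -1.40 (adjusted p = 0.062) and -1.27 (adjusted p = 0.069). Both passed with legacy=FALSE, the first also without lean mouse 3, and the second with DESeq2 and without lean mouse 1. SAT had 4.53, 5.75, 3.52 and 2.97 CPM in lean and 2.45, 3.38, 1.93 and 2.77 CPM in obese mice, with a log2 difference of -0.70 (SE 0.30, adjusted p = 0.133). Ebf1 is also a B cell factor, so the B cell markers are given beside it. The 8 markers summed to between 44.4 and 312 CPM in VAT of lean mice and between 268 and 505 CPM in VAT of obese mice, with 3 of 8 tested entries called higher and none lower (1 by DESeq2 and 5 by limma voom), where 10.9% of all entries were called. In SAT they summed to at most 16.6 CPM. The part of B cells in the Ebf1 counts was not tested.

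Zfp423, the zinc-finger factor that commits precursors, showed no called difference by diet. SAT had 6.26, 2.52, 4.56 and 6.57 CPM in lean mice and 6.67, 6.55, 3.99 and 3.54 CPM in obese mice, and VAT had 4.46, 1.55, 4.06 and 3.63 CPM in lean and 6.10, 3.12, 2.67 and 1.11 CPM in obese mice. All 4 groups overlapped. The log2 differences by diet were 0.05 (SE 0.37) in SAT and -0.19 (SE 0.44) in VAT, and errors of this size leave room for changes near 2-fold. Zfp423 was lower in VAT than in SAT in 4 of 4 obese mice (log2 -0.87, SE 0.27, adjusted p = 0.019 for the sum) and in 4 of 4 lean mice (log2 -0.54, SE 0.29, adjusted p = 0.240). In obese mice the call was lost without obese mouse 2 or 4 (adjusted p up to 0.149), and its larger entry alone gave -0.84 (adjusted p = 0.073).

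Pparg, the central regulator, was not called by diet in either tissue, as its tested entry or as the sum. Its curated coding entries were listed at 0 in all 16 libraries. All Pparg values here rest on predicted transcript models, with 70.3% of the counts on the non-coding one. SAT had 3.95, 2.66, 3.99 and 4.24 CPM in lean mice and 4.06, 2.85, 3.92 and 7.85 CPM in obese mice. Obese mouse 4 stood apart from a tight range of the other 7 SAT libraries, and without it the log2 difference went from 0.33 (SE 0.34, adjusted p = 0.589) to -0.048. Without the filter on low counts its entry XM_006505738, which exceeded 1 CPM in 2 libraries, was called in SAT, with 1, 0, 3 and 1 counts in lean mice and 16, 6, 4 and 22 in obese mice (log2 2.64, SE 0.80, adjusted p = 0.034). VAT had 0, 1.79, 2.88 and 3.52 CPM in lean mice and 1.14, 1.73, 1.91 and 1.54 CPM in obese mice. The value of 0 belongs to the shallowest library, where 3 counts would be 2.39 CPM before TMM scaling, so it sets only that limit. The log2 difference in VAT was -0.58 (SE 0.40, adjusted p = 0.419). Between tissues Pparg was lower in VAT in all 8 mice. In obese mice no VAT library reached any SAT library, as for 14.1% of gene sums downward, and the sum was 2.79-fold lower (log2 -1.48, SE 0.37, adjusted p = 0.004), against -1.26 (SE 0.39, adjusted p = 0.019) for its tested entry. The sum lost its call without obese mouse 4 (log2 -1.06, adjusted p = 0.089), and the entry without obese mouse 3 (adjusted p = 0.082) or 4 (adjusted p = 0.172). In lean mice the sum differed by -0.68 (SE 0.37, adjusted p = 0.253).

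Rxra, the shared partner of Pparg and Ppara, was not called in any comparison. Its values were 3.38, 3.23, 2.38 and 4.03 CPM in SAT of lean mice, 3.60, 3.38, 0.619 and 2.15 CPM in SAT of obese mice, 7.65, 1.85, 3.31 and 3.85 CPM in VAT of lean mice and 9.91, 1.15, 2.196 and 0.682 CPM in VAT of obese mice. The 2 highest values are those of the 2 shallowest libraries, with 12 and 26 counts. The log2 differences by diet were -0.42 (SE 0.58) in SAT and -0.51 (SE 0.64) in VAT, with the largest errors among the 7 factors. With 1 mouse left out the VAT value lay between -1.40 and -0.053, and -1.40 (SE 0.52, adjusted p = 0.096) was the value without obese mouse 1, whose library stood at 9.91 CPM. Ppara was not tested: its 34 counts came to 10, 7, 8 and 9 in SAT lean, SAT obese, VAT lean and VAT obese, with at most 7 in 1 library.

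**Figure D3:**
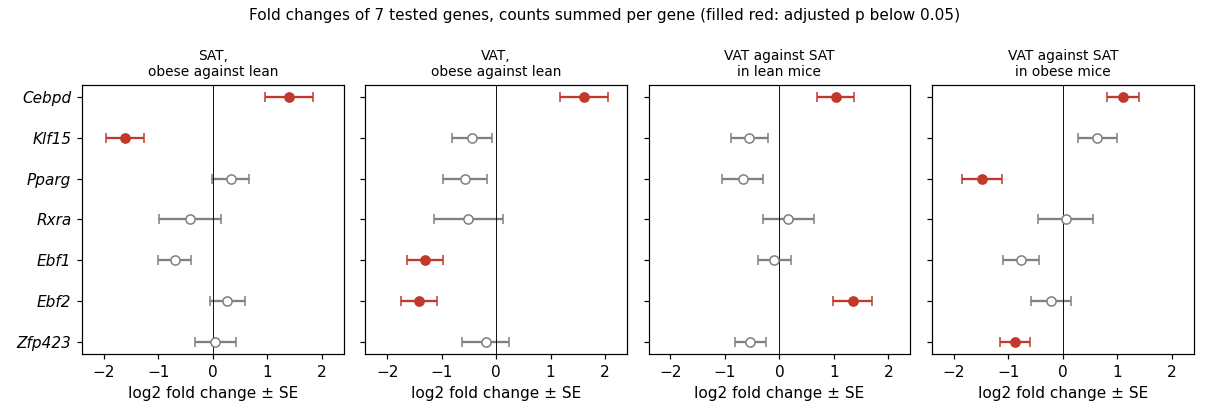
Log2 fold change with SE of the 7 tested factors in 4 comparisons, counts summed per gene; filled red points have an adjusted p below 0.05. Cebpd lies right of 0 in every panel, Klf15 is furthest left in SAT by diet, Ebf1 and Ebf2 in VAT by diet, and Pparg and Zfp423 between tissues of obese mice.

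Between tissues 2 of 7 genes had a called entry in lean mice (Cebpd and Ebf2, both higher in VAT) and 2 of 7 in obese mice (Cebpd higher and Pparg lower in VAT), against 14.8% and 29.4% of all entries. Summed counts gave the same 2 genes in lean mice, against 15.9% of gene sums, and added Zfp423 in obese mice, making 3 of 7 against 31.4%. No member entry was called for the difference between the diet responses of the tissues by edgeR (2.17% of all entries and 2.47% of gene sums were called). At an unadjusted p below 0.05 there was 1 of the 9 member entries, that of Ebf2, and limma voom called 1 and DESeq2 0. Comparisons of diet and of tissue share libraries, so the rise of Ebf2 in VAT of lean mice over SAT and its fall in VAT with obesity rest on the same 4 lean VAT libraries.

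**Figure D4:**
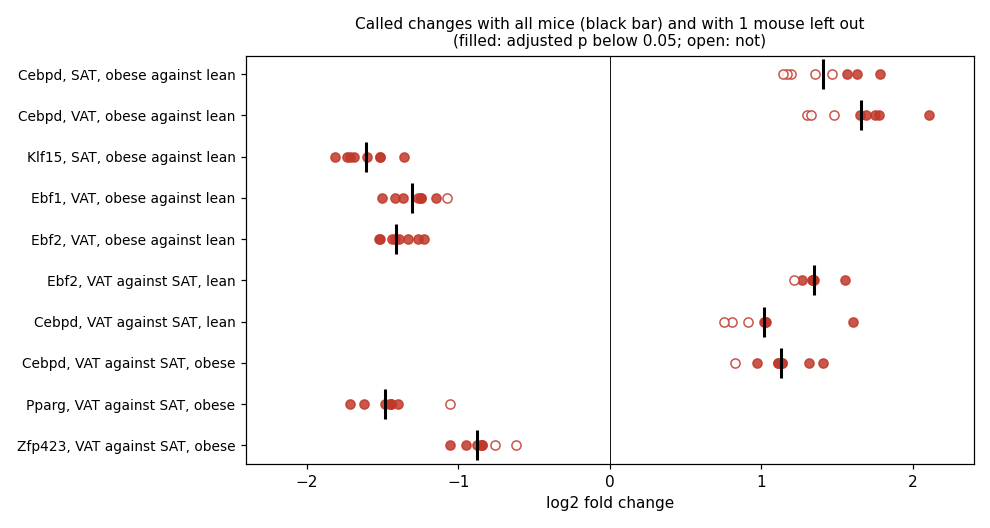
Log2 fold change of 10 called differences (counts summed per gene, Cebpd as its single entry) with all mice (black bar) and with 1 mouse left out at a time (circles, filled where the adjusted p stayed below 0.05). The sums of Klf15 in SAT and Ebf2 in VAT by diet kept the call throughout, while that of Cebpd in SAT was lost in 5 of 8 cases.

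Of 16 further regulators that promote adipogenesis, 10 had tested entries (13 entries) and 3 were listed at 0. None was called by diet in SAT or VAT by edgeR, DESeq2 or limma voom, where edgeR called 11% and 10.9% of all entries. By edgeR 3 entries had an unadjusted p below 0.05 in each tissue. Klf5, a zinc-finger factor that acts downstream of Cebpb and Cebpd, had 3.15 ± 1.09 CPM (SD, n = 4) in VAT of lean mice and between 0 and 0.823 CPM in their SAT. It passed the filter only through VAT, and its SAT values lie near what 3 counts are worth, so no fold or test is given between tissues. In VAT of obese mice it stood at 1.45 ± 0.07 CPM, with a diet difference of -1.04 (adjusted p = 0.152). Egr2, an early factor ahead of Cebpb, was higher in VAT of obese mice than in their SAT (log2 1.47, SE 0.54, adjusted p = 0.043), and an entry of Srebf1, the lipogenic factor, was lower (log2 -1.43, SE 0.53, adjusted p = 0.047). DESeq2 called neither (adjusted p = 0.055 and 0.062), and summed over its entries Srebf1 was not called.

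Of 16 genes known to hold back adipogenesis, 11 were tested with 15 entries. By diet 1 entry was called lower in SAT and none in VAT by edgeR or DESeq2 (1 by limma voom, 3 at an unadjusted p below 0.05 by edgeR). Over all entries edgeR called 11% in SAT and 10.9% in VAT. In lean mice 4 entries were higher and 1 lower in VAT than in SAT, with a median log2 difference of 0.47 against 0.01 over all entries, 14.8% of which were called. In obese mice 3 were higher and 2 lower, with a median of 0.24 against 0.04 over all entries, 29.4% of which were called. Twist1, a factor of mesenchymal cells, had 9.56 ± 2.98 CPM in VAT against 68.8 ± 10.4 in SAT of lean mice (log2 -2.84, SE 0.16, adjusted p = 8.5e-12). Sox9, which keeps precursors undifferentiated, had 6.38 ± 1.83 CPM in VAT against 1.32 ± 0.59 in SAT (log2 2.34, SE 0.33, adjusted p = 1.6e-05). Klf2, a repressor of Pparg transcription, had 88.5 ± 49.5 CPM against 45.8 ± 6.28 (log2 0.82, SE 0.20, adjusted p = 0.007), and Nr2f2, which encodes COUP-TFII, another repressor of Pparg, 3.51 ± 1.70 CPM against 0.850 ± 0.710 (log2 2.18, SE 0.40, adjusted p = 0.00046). Of 16 nuclear receptor partners and coregulators, 6 were listed at 0 and 3 could be tested. The corepressor Ncor1, which binds unliganded Pparg, fell in VAT with obesity from 34.2 ± 3.86 to 23.1 ± 4.34 CPM (log2 -0.54, SE 0.17, adjusted p = 0.047). The groups did not overlap, as was so downward for 5.1% of all gene sums in VAT.

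Known target genes of Pparg and Cebpa in adipocytes were measured with far more counts than the factors. All 20 had tested entries, 42 in all. In VAT 13 entries of 11 genes were lower with obesity and none higher, with a median log2 difference of -0.57 against 0.02 over all entries, 4.09% of which were called lower. Summed per gene, 8 of the 20 targets were called lower in VAT and none higher, where 12.2% of all gene sums were called. In SAT 5 entries were higher and 4 lower, with a median of 0.00, where 11% of all entries were called. Lpl, the lipoprotein lipase, fell in VAT from 26042 ± 3520 to 17330 ± 2074 CPM (log2 -0.59, SE 0.12, adjusted p = 0.002) and in SAT from 46569 ± 1456 to 35425 ± 1414 CPM (log2 -0.40, SE 0.12, adjusted p = 0.031). Acsl1, which activates fatty acids, rose in SAT from 150 ± 39.8 to 307 ± 92.7 CPM (log2 1.04, SE 0.23, adjusted p = 0.006), with a value of -0.30 (adjusted p = 0.499) in VAT. Adrb3, the adrenergic receptor that drives lipolysis, fell in both, by log2 differences of -1.12 (adjusted p = 0.008) in SAT and -0.97 (adjusted p = 0.017) in VAT. For 8 entries of 7 targets the response in VAT was called lower than that in SAT, and for none higher, where 2.17% of all entries were called (11 list entries with DESeq2, 4 with limma voom). In obese mice 26 of the 42 entries were lower in VAT than in SAT and 3 higher (median -0.70 against 0.04 over all entries, 13.5% of which were called lower), and in lean mice 8 were lower and 3 higher (median -0.16 against 0.01, with 14.8% of all entries called). Summed per gene, 3 of the 20 targets were lower and 2 higher in VAT of lean mice, with a median of 0.01. Leptin, Lep, was lower in VAT in both, at 3713 ± 1266 against 14043 ± 3060 CPM in lean mice (log2 -1.95, SE 0.13, adjusted p = 4.2e-10).

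Target genes of Ppara, 14 of which were tested with 14 entries, had 3 called higher and 1 lower in SAT with obesity and 1 lower in VAT, where 11% and 10.9% of all entries were called. The one that fell in VAT was Ehhadh, a peroxisomal enzyme of fatty acid oxidation, from 11.6 ± 3.97 to 4.73 ± 0.74 CPM (log2 -1.37, SE 0.24, adjusted p = 0.001). Its groups did not overlap, as was so downward for 5.1% of all gene sums in VAT. In obese mice 7 entries were lower and 2 higher in VAT than in SAT, against 29.4% of all entries called.

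**Figure D5:**
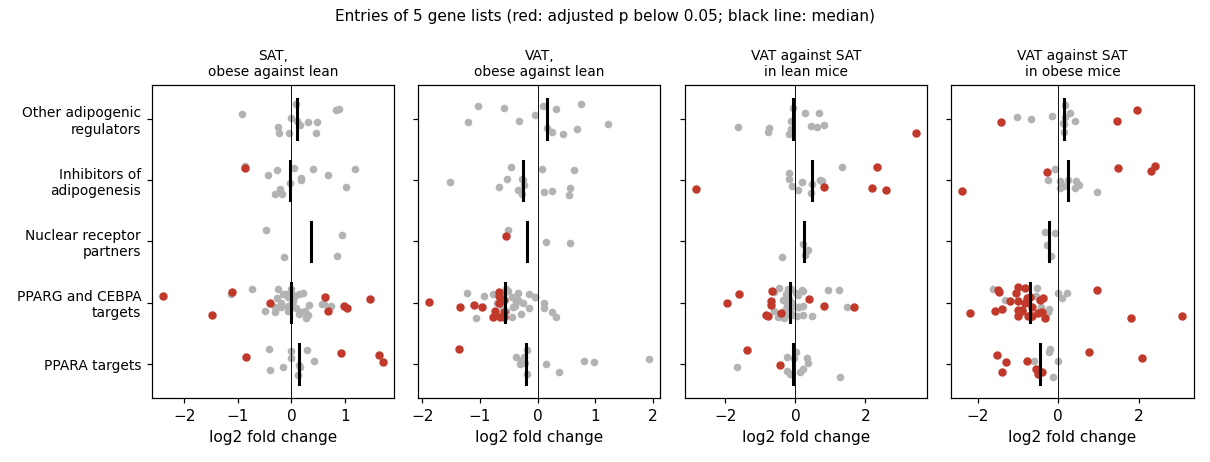
Log2 fold change of the tested entries of 5 gene lists in 4 comparisons (red: adjusted p below 0.05; black line: median of the list). The Pparg and Cebpa targets shift left in VAT by diet (median -0.57) and between tissues of obese mice (median -0.70).

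Markers of several cell types moved with the same comparisons. The 6 adipocyte markers are all also on the list of Pparg and Cebpa targets. They summed to between 21058 and 34327 CPM in VAT of lean mice and 15238 and 26145 CPM in VAT of obese mice. With obesity 4 of 10 entries were called lower there (4.09% of all entries were), Plin1 (log2 -0.66, adjusted p = 0.033) and Retn (log2 -1.11, adjusted p = 0.006) among them. Summed per gene, 2 of the 6 markers were called lower in VAT. In SAT they summed to between 40810 and 57674 CPM in lean and 37069 and 52086 CPM in obese mice, with none called. Of 8 macrophage markers 7 were tested, and 5 were called higher with obesity in SAT and 6 in VAT, against 11% and 10.9% of all entries called in either direction. The sum of the 8 did not overlap between diets, going from 1399 to 2009 CPM in lean to between 2260 and 3201 CPM in obese SAT, and from 2455 to 3208 CPM in lean to between 5469 and 7797 CPM in obese VAT. Of 10 markers of precursors and fibroblasts, the cells that Zfp423 and Ebf2 mark, 7 were tested with 10 entries, and none was called by diet in either tissue by edgeR, DESeq2 or limma voom, and none had an unadjusted p below 0.05. Between tissues 7 of these 10 entries were called in lean and again in obese mice, 4 higher and 3 lower in VAT each time. Of the adipocyte entries 4 of 10 were lower in VAT in lean and 8 of 10 in obese mice. Of the macrophage entries 5 of 7 and 7 of 7 were higher in VAT. Over all entries 14.8% were called between tissues in lean and 29.4% in obese mice. Mesothelial markers, at most 1.40 CPM in SAT, summed to between 244 and 595 CPM in VAT of lean and 301 and 369 CPM in VAT of obese mice. Markers of skeletal muscle, exocrine pancreas and intestinal epithelium summed to at most 7.27, 10.8 and 64.3 CPM in any library, and 1 of 4 intestinal entries was called lower in VAT with obesity. T cell markers summed to between 19.6 and 43.3 CPM in VAT of lean mice and 60.6 and 102 CPM in VAT of obese mice, with 2 of 4 entries called higher. The part of these cells in the changes of the factors was not tested.

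The genes whose level followed each factor most closely over the 16 libraries were named by the correlation of log2 CPM, as a description over points that share mice, depth and group. For Cebpd they were Mt2 (r = 0.939), a metallothionein, Stk17b (r = 0.930) and Tubb6 (r = 0.921). Mt2 and Cebpd stayed at r = 0.824 after the group means were removed. For Pparg they were Sar1b (r = 0.967), Ndfip2 (r = 0.961) and Copz2 (r = 0.951), and without the shallowest library, where Pparg had no count, these were 0.911, 0.870 and 0.913. For Ebf2 they were Acaca (r = 0.846, and 0.595 without group means), an enzyme of fatty acid synthesis, 6430590A07Rik (r = 0.839) and Ift172 (r = 0.836). For Ebf1 they were Irak1bp1 (r = 0.943), Isca1 (r = 0.894) and Elmo3 (r = 0.890). For Klf15 they were Gm10125 (r = 0.830), Rnase2a (r = 0.798, and 0.477 without group means) and Mxd1 (r = 0.788). For Zfp423 they were Slc25a10 (r = 0.944), Igfals (r = 0.873) and Rtn2 (r = 0.869), and for Rxra Wwc2 (r = 0.898), H2ac19 (r = 0.887) and Ptbp1 (r = 0.863). Among the factors themselves, Cebpd and Ebf1 ran in opposite directions (r = -0.715), which came to -0.306 after the group means were removed, and Zfp423 and Rxra ran together (r = 0.600, and 0.757 without group means).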

How the data were processed

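Per the labels and the study's methods, poly(A) RNA was made into directional paired-end libraries, and the authors trimmed reads with Trim Galore (0.6.6 in the submitters' processing notes, where the study's methods give another version), aligned them to GRCm39 with HISAT2 2.2.0 and counted them with HTSeq 0.13.5 on RefSeq transcripts. The strand setting and the handling of reads shared by several transcripts are not given in the sources used here, so reads of an overlapping or antisense gene could not be told apart. The deposited table holds raw counts and CPM for 16 libraries, and the deposited CPM equal the counts divided by the column total, without further scaling.

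Entries were matched to symbols by RefSeq identifier (82.0% of entries have one). The 13288 entries that exceeded 1 CPM in 3 or more libraries were tested with edgeR 4.0.16 (TMM, quasi-likelihood F-test, legacy=TRUE) in R 4.3.3. Diets were compared in a fit of the 4 groups, and tissues and the difference of diet responses with the mouse as a block. SAT and VAT of a mouse are paired by the labels, and their deviations from the group means, correlated over entries, had a median of 0.076 in the 8 pairs, against -0.039 in 24 pairs of different mice. The SE was taken as the log2 fold change divided by the square root of F. One count is worth between 0.060 and 0.796 CPM. Limits from a count of 0 use 3 counts and cover counting error only. In simulated data for the 13288 entries, the test of diets in SAT called 37% of entries changed 2-fold and 81% of those changed 4-fold, and in VAT 35% and 78%. False calls made up 7.81% of the calls in SAT and 2.59% in VAT. The changed entries were drawn at random from all levels and without a mouse effect, so these rates are not those of the factors. For diets the p-values rest on the spread between mice within groups, with an estimate shared by the 4 groups and moderated over entries. The SAT and VAT libraries of a mouse were treated as independent there. For tissues and the difference of responses the p-values rest on the spread of the differences within mice.

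The members and lists were chosen with earlier results of these data known. Named are all 10 members, for each list up to 4 called entries with the smallest adjusted p in the comparison that called most of it, not all of which are printed (1 is not reported here), and for each tested member the 3 genes with the highest correlation. Plots and tables were made with Python 3.11.15, pandas 2.3.3, numpy 2.4.6, scipy 1.17.1 and matplotlib 3.10.9. The alternatives were RLE size factors, no filter, filterByExpr, DESeq2 1.42.0, limma 3.58.1 voom, legacy=FALSE, the 8 libraries of 1 tissue or diet, a replicate block or none, counts summed per gene, and leaving out each mouse. Leaving out mouse 1 of both diets, or the VAT library of lean mouse 1, and the DESeq2, unfiltered and leave-out fits of gene sums were added after seeing the data.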

Additional observations from a re-analysis of the deposited data

Results flagged for a closer look

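Rxra stood at 9.91 CPM in VAT of obese mouse 1, on 26 counts, while VAT of the other 3 obese mice had between 0.682 and 2.196 CPM. The gap to the nearest of these was larger, relative to the range of the group, than Dixon's limit for 4 samples allows. It was 1 of 32 groups of 4 tested this way for 8 factors, and chance alone gives about 1 in 20.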

How the results depend on the processing

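The count of factors with a called entry was 2 in each comparison of diets or tissues. With DESeq2 it was 1 in SAT by diet (Klf15), 1 between tissues in lean mice (Ebf2) and 1 in obese mice (Pparg), and in VAT by diet it stayed at 2 with Ebf1 in place of Cebpd. Zfp423 was added between tissues of obese mice by limma voom and legacy=FALSE (3 each), Ebf1 in VAT by diet by legacy=FALSE (3), and Pparg in SAT by diet without the filter (3), and limma voom had Pparg in place of Cebpd between tissues in lean mice. It was 1 in lean mice without the mouse block and 1 without the VAT library of lean mouse 1 (Ebf2 in both), and without mouse 1 of both diets it was 1 in SAT by diet (Cebpd) and 1 between tissues in lean mice. For the difference between diet responses limma voom called 1 where edgeR called 0. With 1 mouse left out the counts ranged from 1 to 2 in SAT, 1 to 3 in VAT, 0 to 2 between tissues in lean mice and 1 to 2 in obese mice. Over all entries, the calls for the difference of responses went from 288 to 462 with DESeq2 and 128 without the mouse block, and the calls by diet went from 1468 to 938 in SAT without lean mouse 2 and from 1449 to 832 in VAT without obese mouse 4. Calls between tissues of obese mice went from 3905 to 2551 without obese mouse 4, and those for the difference of responses to 185, 152 and 134 without lean mouse 2, lean mouse 3 and obese mouse 4. The labels do not say that a replicate number pairs mice across diets. Deviations of same-numbered mice had a median correlation of 0.068 (-0.094 to 0.173 in 8 pairs) against -0.017 in 24 other pairs, and with the number as a replicate block the counts stayed at 2 in SAT and 2 in VAT.

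Over 562 alternative values of 43 member results, 500 kept their direction and side of the threshold, 32 lost the call, 9 gained one and 21 turned direction, all of these without a call. Many of the 43 results had no call and so could not lose one. Cebpd lost its call in 6 of 18 alternatives in SAT by diet, 4 of 18 in VAT, and 8 and 2 of 18 between tissues in lean and obese mice. The entry of Klf15 lost it in 2 of 18 in SAT, and that of Ebf2 in 0 of 18 in VAT by diet. With 1 mouse left out, the Cebpd difference of responses lay between -0.49 and 0.38, summed Pparg by diet in SAT between -0.048 and 0.50, Zfp423 by diet between -0.18 and 0.21 in SAT and -0.51 and 0.17 in VAT, Ebf1 between tissues in lean mice between -0.25 and 0.019, and Ebf2 between tissues in obese mice between -0.41 and 0.13. Rxra lay between -0.13 and 0.50 in lean and -0.52 and 0.65 in obese mice between tissues, and its difference of responses between -0.67 and 0.49. Without mouse 1 of both diets, Ebf1 (0.017) and Rxra (-0.13) in lean mice and Rxra in obese mice (-0.56) turned direction. The causes were not tested. Apart from Cebpd, no factor had over 102 counts in 1 library, which limits the precision of its values.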
